A study of Mus musculus with 29 samples.

Results

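S100a8 and S100a9 are the 2 mouse genes for the subunits of calprotectin, and they are followed here through the main cell types of a single-cell study of brain and blood after stroke. They were taken by name, as 2 of the 27514 genes in the largest count table. Counts per gene and cell were summed over the cells of each type in each library, and a level is given as CPM, the gene's count in every 1000000 counts of that type in that library. The share of cells with any value above 0 is given beside it.

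The study profiled 106977 cells by Drop-seq, a droplet method that gives each cell its own barcode, in 29 libraries from C57BL/6J mice. Stroke was induced by blocking the middle cerebral artery for a limited time (MCAO), and sham was the surgical control. The young mice were males of 8 to 10 weeks. Young brain was sampled 2 days after sham surgery (4 libraries), 2 days after stroke (4 libraries) and 14 days after stroke (4 libraries). Young blood was sampled at the same points with 4, 4 and 3 libraries. From aged mice, 17 to 20 months old, only brain was taken. Aged sham comprises a male and a female library of day 2. Aged stroke comprises 3 libraries of day 2, from males in 1 and females in 2, and a single female library of day 14. Every sham library dates from day 2, which is therefore the reference for both times after stroke. Each brain library pooled cells of 4 to 5 hemispheres, sorted for CD45-high leukocytes, microglia and endothelial cells, and each blood library pooled blood of 2 mice after depletion of Ter-119 positive red cells.

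Calprotectin is a heterodimer of the calcium-binding proteins S100A8 and S100A9. It fills much of the cytosol of neutrophils and is also made by monocytes, it starves microbes by binding zinc and manganese, and once released it acts as a danger signal on Toll-like receptor 4 and on the receptor for advanced glycation end products. Transcription of both genes starts during the maturation of neutrophils in bone marrow under factors of the C/EBP and PU.1 families. Their mRNAs are among the most abundant of a mature neutrophil, so free RNA from broken neutrophils can reach droplets that hold other cells.

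In the RefSeq annotation of GRCm38.p6, the build that the authors' notes name as mm10, S100a8 (gene 20201) lies on the plus strand of chromosome 3 from 90669071 to 90670034, over 964 bases. S100a9 (gene 20202) lies on the minus strand from 90692630 to 90695721, over 3092 bases. The genes are separated by 22595 bases with 0 annotated genes between them, and both are protein-coding. Their promoters are shown because the levels of both genes moved together in most of the comparisons that follow. Each line runs 5′ to 3′ along the gene's own strand, from 250 bases before the annotated start to 30 bases after it, and capitals mark the motif matches. The positions are chr3:90668821-90669100 for S100a8 and chr3:90695692-90695971 for S100a9.
S100a8: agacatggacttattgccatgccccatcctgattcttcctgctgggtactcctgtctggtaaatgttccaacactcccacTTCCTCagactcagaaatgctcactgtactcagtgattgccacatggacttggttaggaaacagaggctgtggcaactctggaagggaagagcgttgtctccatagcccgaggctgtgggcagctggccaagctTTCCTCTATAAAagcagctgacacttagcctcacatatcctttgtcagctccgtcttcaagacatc
S100a9: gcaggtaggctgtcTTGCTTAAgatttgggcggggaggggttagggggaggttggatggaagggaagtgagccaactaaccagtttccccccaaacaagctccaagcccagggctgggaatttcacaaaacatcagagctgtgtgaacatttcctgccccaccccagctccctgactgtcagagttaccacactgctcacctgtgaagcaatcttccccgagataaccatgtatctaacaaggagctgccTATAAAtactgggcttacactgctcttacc
The promoters of the RefSeq table, 300 bases long and so reaching 20 bases past the end of each line, were searched on both strands for TATAAA (the TATA box), TTGCNNAA (C/EBP), GAGGAA (PU.1), TTCNNNGAA (STAT) and GGG and CC with any 5 bases between them (NF-kB). In S100a8, GAGGAA was found on the reverse strand at bases 81 to 86 and 215 to 220 of the line, and TATAAA at bases 221 to 226, directly after the second GAGGAA match. In S100a9, a C/EBP match stood at bases 15 to 22 and TATAAA at bases 251 to 256, the first bases of the annotated transcript. Neither promoter had a match to the STAT or NF-kB letters. Among 32851 mouse promoters of the same length, 13.6% held TATAAA, 10.8% the C/EBP letters and 28.3% the PU.1 letters. The STAT letters stood in 8.30% of them and the NF-kB letters in 50.8%. These matches describe the letters only and no binding was measured.

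The libraries held between 1143 and 6328 cells and 819438 to 5855047 counts, and the median cell of a library held 321 to 1363 counts. The authors' type codes were used, with Gran for neutrophils of the brain and Neu for those of the blood. Of all marker lists, that of 10 neutrophil genes had the highest summed level in Gran and Neu, and also in the blood codes Eos.Bas and pre. The monocyte and macrophage list led in MdC and Mo, and also in DC and BAM, which are given by code only. The codes Mg, EC, MC, Bc, Tc and NK were led by the lists for microglia, endothelial, mural, B, T and NK cells. Neutrophils made up 0.797% to 6.10% of brain cells and 11.4% to 69.6% of blood cells. Of 106624 distinct barcodes, 345 occurred in more than 1 library, and no pair of libraries shared more than 7. The tables hold fractional counts, and many values of S100a8 and S100a9 outside neutrophils are above 0 but close to 0. For that reason a second reading was made, in which every value above 0 was rounded up to a whole count. It is given for the median S100a8 levels of other cell types and for several of their comparisons.

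S100a8 and S100a9 were neutrophil transcripts in every library. Neutrophils held 73.8% to 100% of the S100a8 counts of a brain library and 94.7% to 100% of those of a blood library. In young brain the median level over libraries was 82207 CPM in Gran, with a range of 26129 to 161513, against 73.2 CPM in MdC, the next type in order. In blood it was 113196 CPM in Neu, with a range of 57043 to 165910. The next blood code was pre, at 35754 CPM over the 3 libraries with at least 20 such cells. The ranges of Gran and MdC did not overlap, while those of Neu and pre did. Below MdC in brain came DC at 10.8 CPM, Bc at 6.67, Tc at 6.67, BAM at 5.21 and Mg at 0.27, with ranges that overlapped from each type to the next. EC, MC and NK cells had medians under 0.01 CPM. With values rounded up the order below MdC (133 CPM) was another: MC at 128 (3 libraries), Bc at 79.4 and BAM at 70.1 CPM. DC then stood at 46.0, Mg at 45.1, Tc at 36.4, EC at 33.8 and NK cells at 0 CPM. In blood, Eos.Bas stood at 128 CPM, DC at 0.48 and Mo (monocytes) at 0.21, and Tc, Bc and NK cells were under 0.01. Rounded up, the blood medians below pre (32154 CPM) ran from 922 CPM in Bc to 606 in DC, with Eos.Bas at 797.

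**Figure D1:**
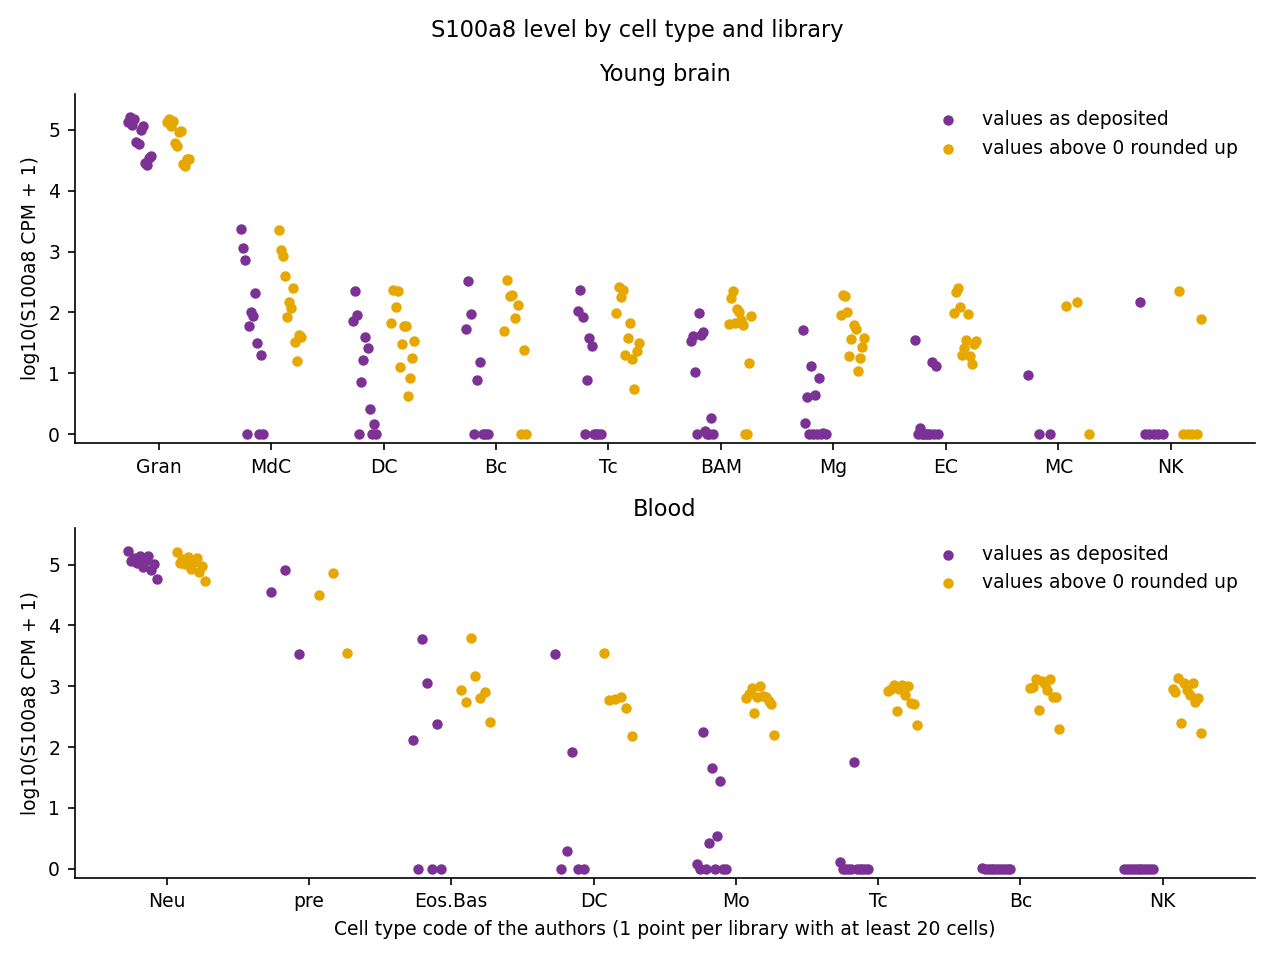
S100a8 level by cell type, as log10 of CPM plus 1, with 1 point per library of at least 20 cells, for the deposited values (purple) and for values rounded up (yellow). Neutrophils (Gran and Neu) stand above all other types but pre, and in blood Mo, Tc, Bc and NK cells the yellow points form bands at similar heights. The purple points of Bc and NK cells lie at 0, as do those of Tc in all but 1 library, while those of Mo reach 178 CPM.

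In neutrophils of young brain, both genes were lower after stroke, and lowest at day 14. The day 14 levels passed the test against sham and the day 2 levels did not. S100a8 stood at 137649, 161513, 122935 and 154114 CPM in the 4 sham libraries. It stood at 64425, 58009, 99989 and 115291 CPM 2 days after stroke. At day 14 the values were 28333, 26129, 35138 and 37064 CPM. The 3 groups did not overlap: each library of a later group lay below each library of the group before it. S100a9 stood at 114143, 98899, 75992 and 84370 CPM in sham, and at 58071, 41682, 76280 and 66114 CPM at day 2. At day 14 it stood at 24726, 22798, 23943 and 27127 CPM. For S100a9 the highest library of day 2 lay just above the lowest of sham, and the day 14 libraries lay below all others.

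The decline from sham to day 14 passed the test for both genes. edgeR's quasi-likelihood test on the summed counts, with p-values adjusted by Benjamini and Hochberg over 994 genes, gave a log2 fold change of -2.58 ± 0.32 (SE) for S100a8, 5.97-fold lower, with an adjusted p of 1.03e-05. For S100a9 it was -2.32 ± 0.30, 5.00-fold lower, with an edgeR adjusted p of 1.61e-05. In this comparison 26.1% of all genes tested passed, and 13.1% passed as lower. From day 2 to day 14, where 4.23% of genes passed, S100a8 changed by -1.62 ± 0.31 (edgeR adjusted p = 0.00502) and S100a9 by -1.50 ± 0.29 (edgeR adjusted p = 0.00602). Without replicate 4 of stroke day 2 these values were -1.39 and -1.41, with an edgeR adjusted p of 0.0515 for both. From sham to day 2, where 8.35% of genes passed, the values were -0.96 ± 0.30 (edgeR adjusted p = 0.0566) for S100a8 and -0.82 ± 0.29 (edgeR adjusted p = 0.0915) for S100a9. Neither passed, although all 4 S100a8 values lay below those of sham; with DESeq2 both passed (adjusted p = 0.00819 and 0.0113).

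The choice of scaling moved these values. With library size alone in place of the trimmed mean of M values, the median gene of the day 14 comparison moved from -0.06 to 0.44 on the log2 scale. S100a8 then stood at -2.04 and S100a9 at -1.78, and the genes called split into 198 higher and 62 lower instead of 129 and 130. For day 2 against sham the split was 78 higher and 17 lower instead of 55 and 28, and for day 14 against day 2 it was 41 and 21 instead of 18 and 24. Neutrophils had 21 to 169 cells per brain library. Other values moved with the groups: the summed level of the 10 neutrophil markers in Gran was 42097 to 67889 CPM in sham, 16202 to 29181 at day 2 and 6037 to 13234 at day 14. That of 8 monocyte and macrophage markers was 6885 to 9183, 1432 to 5846 and 1293 to 3543 CPM. That of 7 microglia markers was 133 to 455, 116 to 589 and 414 to 623 CPM. The number of markers at 0 in a library was highest in sham for the monocyte list (5 of 8) and in stroke day 2 for the microglia list (5 of 7). Their part in the result was not tested, and in summed counts fewer cells rich in a transcript and less RNA per cell cannot be told apart.

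**Figure D2:**
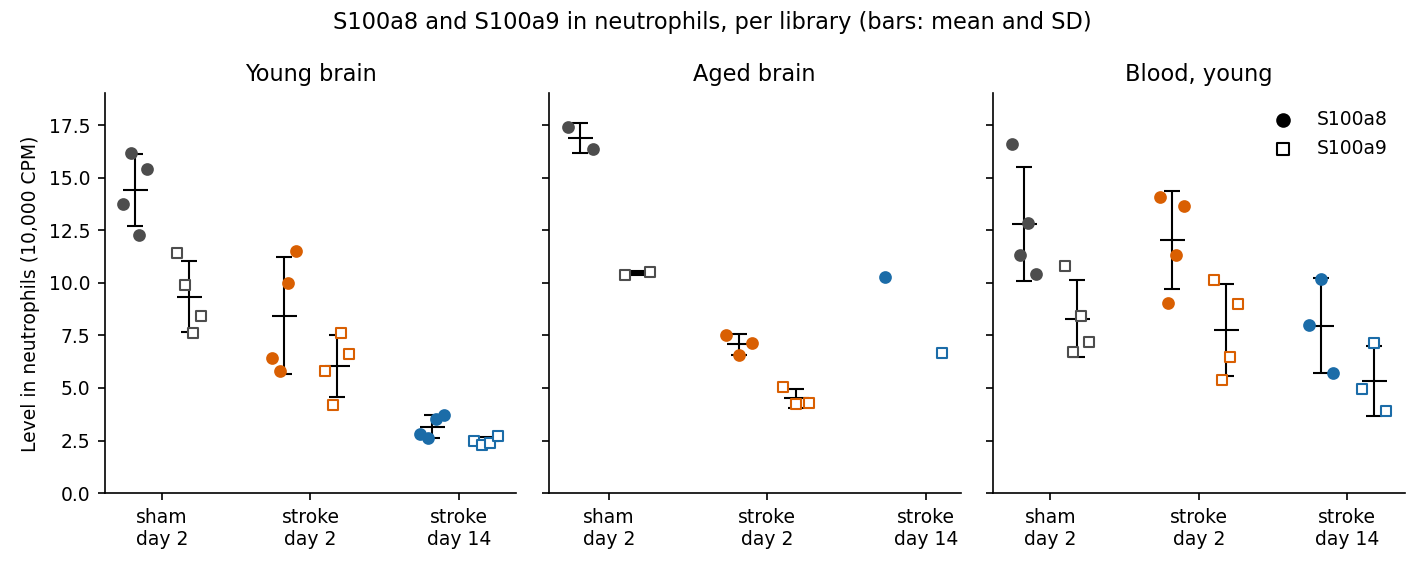
Level of S100a8 (filled circles) and S100a9 (open squares) in neutrophils of each library, in units of 10000 CPM, for young brain, aged brain and young blood, with bars for the mean and SD of a group. In young brain the day 14 libraries lie below all sham and day 2 libraries for both genes, while in blood the day 2 libraries overlap with those of sham.

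In blood neutrophils the levels 2 days after stroke overlapped with sham, and those of day 14 were lower without passing the test in edgeR. S100a8 stood at 165910, 113360, 128227 and 104219 CPM in sham and at 140962, 90423, 113196 and 136732 CPM at day 2. At day 14 it stood at 80105, 101873 and 57043 CPM, below every sham library, with 1 library above the lowest of day 2. S100a9 stood at 108032, 67300, 84381 and 71922 CPM in sham, at 101482, 53914, 64616 and 89740 CPM at day 2 and at 49606, 71284 and 38990 CPM at day 14. For S100a9 the day 14 library at 71284 CPM lay above 1 sham library and above 2 libraries of day 2. At day 2 against sham, where edgeR called 0 of 4944 genes (209 at an unadjusted p under 0.05, and 0 with DESeq2), S100a8 differed by -0.10 ± 0.29, with a 95% interval of -0.67 to 0.47, and S100a9 by -0.10 ± 0.32, with an interval of -0.72 to 0.52. At day 14 against sham, where 5.99% of genes passed, S100a8 differed by -1.01 ± 0.32 (edgeR adjusted p = 0.0779) and S100a9 by -0.97 ± 0.35 (edgeR adjusted p = 0.118). At day 14 against day 2, where 4.69% passed, the differences were -0.92 (edgeR adjusted p = 0.129) and -0.87 (edgeR adjusted p = 0.189). None of these passed in edgeR, and DESeq2 called both genes at day 14 against sham (adjusted p = 0.0131 and 0.0378). With library size alone the calls at day 14 against sham split into 293 higher and 99 lower genes, against 108 and 188, and those at day 14 against day 2 into 182 and 79, against 69 and 163.

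Neutrophils of the brain and blood of the same groups were then compared. Brain cells were sorted and blood was depleted of red cells, so tissue cannot be told apart from cell isolation. All Gran cells were taken, including the subtype Gran5 described below, and this comparison was not run without it. In sham, where 5.68% of genes passed, brain stood 0.27 ± 0.29 above blood for S100a8 on the log2 scale (edgeR adjusted p = 0.682) and 0.28 ± 0.30 for S100a9 (edgeR adjusted p = 0.685). At day 2, where 13.5% passed, brain stood at -0.59 ± 0.40 for S100a8 (edgeR adjusted p = 0.334) and -0.46 ± 0.39 for S100a9 (edgeR adjusted p = 0.438). At day 14, where 23.4% passed and 10.1% as lower in brain, S100a8 was lower in brain by -1.35 ± 0.43 (edgeR adjusted p = 0.024) and S100a9 by -1.14 ± 0.42 (edgeR adjusted p = 0.0481). Every brain library of day 14 lay below every blood library of day 14 for both genes. The call was lost for S100a8 in 5 of 15 fits that left out 1 library, most of all without blood replicate 2 of day 14 (-1.14, edgeR adjusted p = 0.139), and for S100a9 in 11 of 15. The difference between the 2 tissues' responses was itself tested, as a comparison added later: at day 14 it was -1.65 ± 0.60 for S100a8 (edgeR adjusted p = 0.125 over 2736 genes, of which 3.4% passed) and -1.45 ± 0.59 for S100a9 (edgeR adjusted p = 0.177). Neither passed.

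Within neutrophils the authors name subtypes, Gran1 to Gran6 in brain and Neu1 to Neu6 in blood. These are clusters of the same cells, so the levels of their genes describe them and are no test. Pooled over young brain, S100a8 stood at 135892 CPM in Gran1 (567 cells), 51780 in Gran2 (393 cells) and 20682 in Gran3 (122 cells). Gran4 (64 cells) had the highest level, 185516 CPM, Gran6 (23 cells) stood at 108071 and Gran5 (61 cells) at 79583 CPM. The groups differed in level and in subtypes, so this pooled order need not hold within each group. The share of cells above 0 was 99.5% in Gran1, 91.1% in Gran2, 82.0% in Gran3, 100% in Gran4 and 95.7% in Gran6, with 45.9% in Gran5 (95% Wilson interval 34.01 to 58.28%, counting error only). Of the 61 Gran5 cells, 29 came from replicate 3 of stroke day 14 and carried almost no S100a8. Gran of that library held 3334 S100a8 counts rounded up, and 3332 as deposited without Gran5. The pooled level and share of Gran5 thus need not hold in any single library. In blood all 6 subtypes had 99.3% to 100% of cells above 0, and S100a8 ran from 94041 CPM in Neu3 to 175704 in Neu6. Gran4, Gran5, Gran6, Neu6 and the subtype pre3 (S100a8 at 189153 CPM, 73 cells) had the highest levels of Camp, Ngp and Ltf, genes of the secondary granules that neutrophils fill before leaving bone marrow. Pooled over all libraries, Camp stood at 29966 CPM in Gran4, 12660 in Gran5, 29217 in Gran6, 23281 in Neu6 and 63925 in pre3. Over all Gran of young stroke day 2, where Gran6 made up 2.70% to 5.41%, Camp lay under a floor of 3 counts. The pooled Camp levels of Gran5 and Gran6 thus come from other groups and do not hold for all their cells. In the other Gran and Neu subtypes it was at most 339 CPM, in Gran1. The subtypes pre1 and pre2, which held Elane and Mpo of the early azurophil granules, had S100a8 at 137 and 2.15 CPM. Gran3 had the highest level of the chemokine gene Ccl3 (5892 CPM) and Gran2 that of the cytokine gene Il1b (30698 CPM).

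The mix of subtypes differed between the groups. Gran1 made up 75.6% to 90.8% of brain neutrophils in sham, 20.0% to 44.6% at day 2 and 3.15% to 6.90% at day 14. Gran2 made up 0% to 8.43%, 45.9% to 58.5% and 52.3% to 65.5%, and Gran3 0%, 2.70% to 24% and 22.2% to 29.6%. The 3 ranges of Gran1 did not overlap. These shares were not tested. Within Gran1 alone, 4 sham libraries and 2 of the 4 day 2 libraries had at least 20 cells. These 2, replicates 3 and 4 with 33 and 63 Gran1 cells, were the ones with the highest S100a8 level in all Gran at day 2. There S100a8 differed by 0.01 ± 0.22 between day 2 and sham, with a 95% interval of -0.43 to 0.44 (edgeR adjusted p = 0.985), and S100a9 by -0.01 ± 0.27 (edgeR adjusted p = 0.985); edgeR called 0 of 714 genes there, with 89 at an unadjusted p under 0.05. Within Gran2, over 4 libraries of day 2 and 3 of day 14, S100a8 differed by -0.85 ± 0.27 between day 14 and day 2 (edgeR adjusted p = 0.149, 3.48% of 316 genes passed) and S100a9 by -0.66 ± 0.26 (edgeR adjusted p = 0.299). Il5ra, for the interleukin-5 receptor, a marker of eosinophils that was picked out here after its values were seen, stood at 106 CPM in Gran5 and at 0 in the other Gran subtypes. Siglecf, another such marker, was highest in Gran2 (114 CPM), with 70.4 CPM in Gran5, and Gran5 also carried the neutrophil genes Retnlg (10304 CPM) and Cxcr2 (1331 CPM). The Il5ra and Siglecf levels of Gran5 came from few cells and very few counts, and they do not settle what these cells are. Levels of S100a8 and S100a9 were also computed without Gran5. Gran5 made up 0% to 5.66% of Gran in sham and day 2 libraries and 0% to 18.95% at day 14. Without Gran5 cells, S100a8 differed from sham by -0.96 at day 2 (edgeR adjusted p = 0.0474, which passed) and by -2.53 at day 14 (edgeR adjusted p = 8.58e-06), and S100a9 by -0.83 (edgeR adjusted p = 0.0804) and -2.27 (edgeR adjusted p = 1.44e-05). The share of cells above 0 for S100a8 was then 99.8% ± 0.35 (SD, n = 4) in sham, 91.0% ± 6.3 at day 2 and 88.1% ± 3.7 at day 14. These fits were added later, and other subtypes had too few cells per library.

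In blood, Neu3 made up 0.967% to 32.2% of neutrophils in sham, 2.17% to 9.60% at day 2 and 63.9% to 82.0% at day 14. Within Neu3, over 3 libraries of each group, S100a8 was lower at day 14 than in sham by -1.33 ± 0.39 and S100a9 by -1.30 ± 0.38 (edgeR adjusted p = 0.036 and 0.0369, 7.62% of genes passed). Within Neu5 the differences were -1.10 ± 0.33 and -1.08 ± 0.33 (edgeR adjusted p = 0.0305 and 0.0307, 8.62% of genes passed). In the other 4 subtypes S100a8 stood between -1.37 (Neu1) and -0.38 (Neu6), and edgeR called neither gene there. Of these 4 subtypes, 0.0296% of genes passed in Neu1, 0.135% in Neu2, 1.18% in Neu4 and 0% in Neu6.

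**Figure D3:**
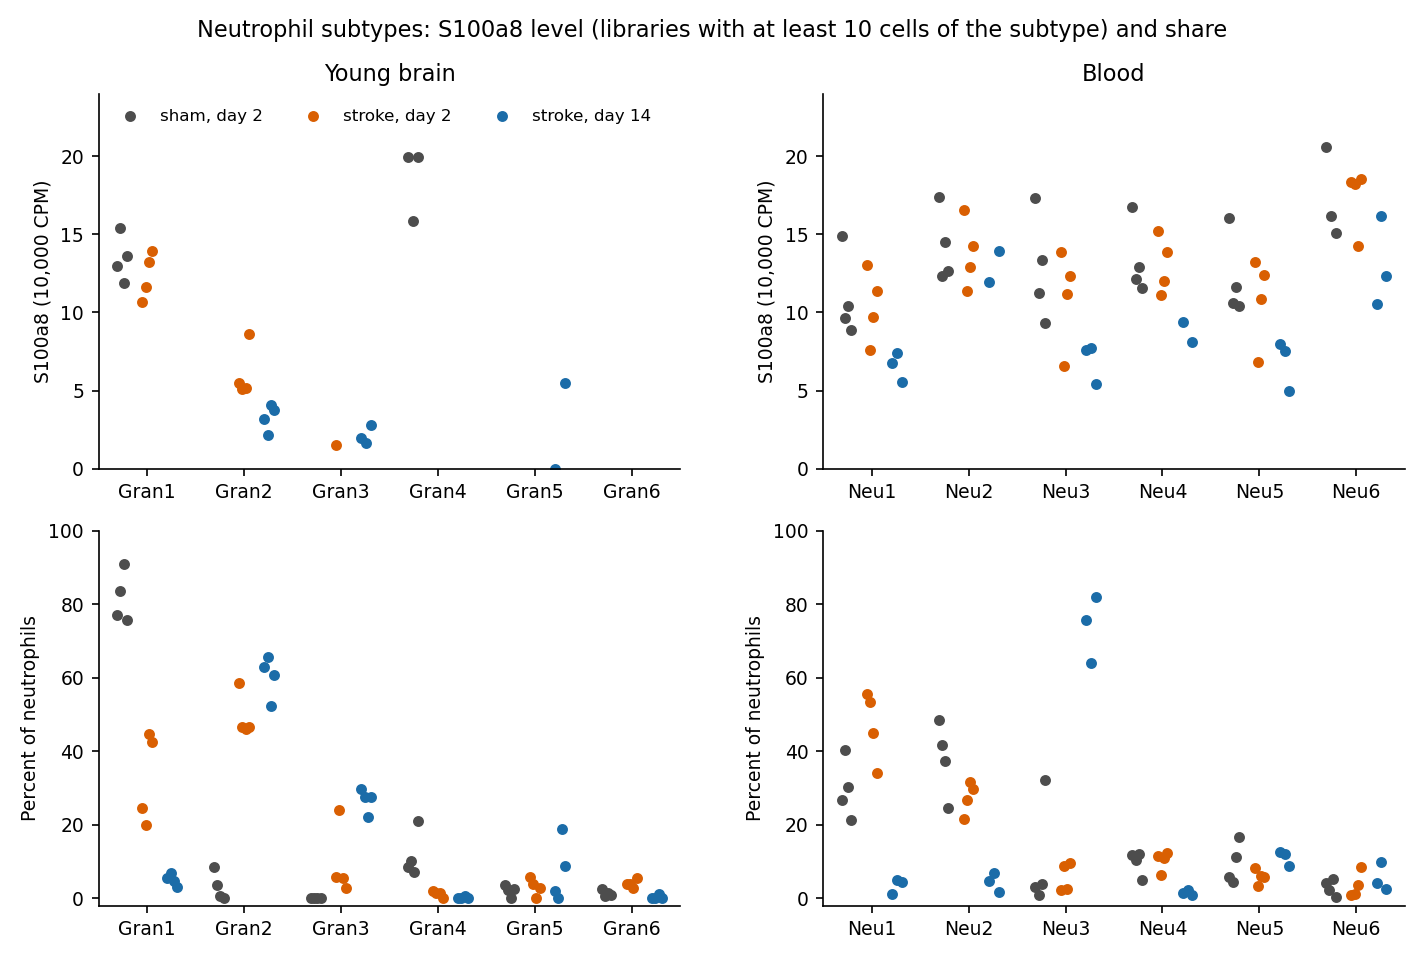
Neutrophil subtypes of young brain (left) and blood (right): the S100a8 level in libraries with at least 10 cells of the subtype, in units of 10000 CPM (top), and the share of each subtype among the neutrophils of a library in percent (bottom). Grey, orange and blue points are sham at day 2, stroke at day 2 and stroke at day 14; Gran1 overlaps between sham and day 2 in level, and its share is 75.6% to 90.8% in sham and 20.0% to 44.6% at day 2.

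Nearly all brain neutrophils of sham held S100a8, while the share was lower after stroke in a difference that did not pass adjustment. The share of Gran cells above 0 was 99.5% ± 0.36 (SD, n = 4) in sham, 90.9% ± 6.6 at day 2 and 83.7% ± 8.7 at day 14. For S100a9 the shares were 99.3% ± 0.49, 84.8% ± 11.9 and 79.2% ± 9.8. The same share in endothelial cells, a type outside the myeloid lineage, was 7.73% ± 2.5 in sham and 1.28% ± 0.75 at day 14. The median counts per cell were 325 to 552 in Gran of sham, 273 to 736 at day 2 and 286 to 561 at day 14, and 286 to 606 in endothelial cells of sham. Cells with at least 300 rounded counts were then thinned to 300, and shallower cells were left out. The Gran shares were then 98.9% to 100%, 82.4% to 99.2% and 76.3% to 86.4%. In libraries with a median near or under 300 counts, many Gran cells were thus not included. For the shares before thinning, both groups after stroke gave p = 0.0286 against sham in an exact permutation test, two-sided, the smallest that 4 against 4 allows. After thinning, S100a8 gave an exact p of 0.0571 at day 2 and 0.0286 at day 14. Over the 74 share tests before thinning 0 passed Benjamini-Hochberg adjustment (lowest adjusted p = 0.117), and 18 had an unadjusted exact p under 0.05. With a smallest exact p of 0.0286, most of the 74 tests would have had to reach it for any to pass adjustment. The adjusted result therefore cannot decide whether the Gran shares differed.

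No difference between groups in the ratio of S100a8 to S100a9 in neutrophils passed the test. The S100a8 count was 1.11 to 1.83 times the S100a9 count over all 29 libraries. The mean log2 ratio of S100a9 to S100a8 was -0.64 ± 0.26 (SD, n = 4) in young sham brain, -0.45 ± 0.27 at day 2 and -0.35 ± 0.18 at day 14. In blood it was -0.63 ± 0.09, -0.66 ± 0.15 and -0.59 ± 0.09. The largest of 7 differences, 0.29 at day 14 in brain, had an exact permutation p of 0.143 (adjusted 0.733), and the adjusted p-values of all 7 ran from 0.733 to 0.829. The smallest p these designs allow is 0.0286 in young mice and 0.1 in aged mice. A difference could thus pass adjustment only if most of the 7 comparisons reached 0.0286, and the aged one could not pass at all. The lack of a passing difference therefore does not show that the ratio stayed the same.

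Aged brain neutrophils showed the same order of levels at day 2. S100a8 stood at 174020 CPM in the male and 163658 in the female sham library, and at 75372 (male), 65499 and 71344 CPM (female) after stroke. S100a9 stood at 103947 and 105188 CPM in sham and at 50378, 42316 and 42931 CPM after stroke. No stroke library overlapped with sham. The log2 difference was -1.51 ± 0.41 for S100a8 (edgeR adjusted p = 0.049) and -1.46 ± 0.40 for S100a9 (edgeR adjusted p = 0.0516), in a comparison where 3.14% of genes passed and 0.642% as lower. The S100a8 call was lost in 7 of 13 edgeR fits that left out 1 library each, while the difference stayed between -1.64 and -1.41. Without the male aged sham library it was -1.41 (edgeR adjusted p = 0.438) and without the female one -1.60 (edgeR adjusted p = 0.289). Each of these fits has a single aged sham library, which is assumed to vary like the other groups. Aged against young, S100a8 differed by 0.30 ± 0.39 in sham and by -0.22 ± 0.35 after stroke, and the response to stroke by -0.53 ± 0.53, with a 95% interval of -1.56 to 0.51. For S100a9 these were 0.23 ± 0.38, -0.37 ± 0.34 and -0.61 ± 0.51. edgeR called neither gene, and 0% of genes, in all 3 comparisons (60, 109 and 61 genes at an unadjusted p under 0.05). All young libraries were male while the aged ones were of both sexes, so these differences also carry sex. The young brain tables hold 19704 genes and the aged ones 27514. The fits used the genes of both, while CPM was taken over each table's own genes. The single aged library of day 14, with 21 neutrophils, stood at 102660 CPM for S100a8 and 66863 for S100a9, above all 4 young libraries of that day, and has no replicate.

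The genes of granules and maturation, a list of 17, were mostly lower in the brain at day 14 as well. At day 14 against sham, 9 of 14 tested members were lower and 1 higher, with a median of -3.06 over the tested members against -0.06 over all genes, of which 13.1% passed as lower. Retnlg, which encodes a secreted resistin-like protein, fell from 17646 to 25264 CPM in sham to 617 to 2794 CPM (-4.38, edgeR adjusted p = 4.02e-06). The collagenase gene Mmp8 fell from 2709 to 5442 to between 47.4 and 326 CPM (-4.83, edgeR adjusted p = 4.58e-06), and Lcn2, for the siderophore-binding lipocalin 2, fell by 3.91. Ly6g, the surface marker of mouse neutrophils, was at 0 in all 4 libraries of day 14 against 659 to 1023 CPM in sham, at least 46.1-fold lower when a floor of 3 counts is taken over the group. With Ly6g at that bound the median of the list was again -3.06. The filter on low counts keeps a gene that is high in a single group. Ly6g was thus tested only through groups other than day 14, and its direction was fixed. The same limit holds for Mmp8, at 47.4 CPM in its lowest day 14 library, and for any other list gene that low at day 14. The count and the median of the list, and the adjusted p of Mmp8, are therefore descriptions. Camp (-4.15), Ngp (-4.18), Ltf (-3.21), Chil3 (-2.92) and Padi4 (-2.63) also fell. Cxcr4, a chemokine receptor that retains neutrophils in bone marrow, rose (2.94, edgeR adjusted p = 0.0195). Cxcr2, Mmp9 and Cybb did not pass, and Elane, Mpo and Prtn3 were too low to test.

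At day 2 against sham, 8 of the 14 tested granule and maturation genes were lower and 0 higher, with a median of -1.56 against -0.01 over all genes, of which 2.82% passed as lower. The same limit of the filter applies to this count, for instance through Camp, which lay under a floor of 3 counts over the day 2 group. In blood at day 14 only Retnlg passed (-1.70, edgeR adjusted p = 0.00801), out of 14 tested, with a list median of -0.15, where 3.8% of all genes passed as lower. There Camp, Ngp, Ltf and Chil3 stood at positive values that did not pass. 

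**Figure D4:**
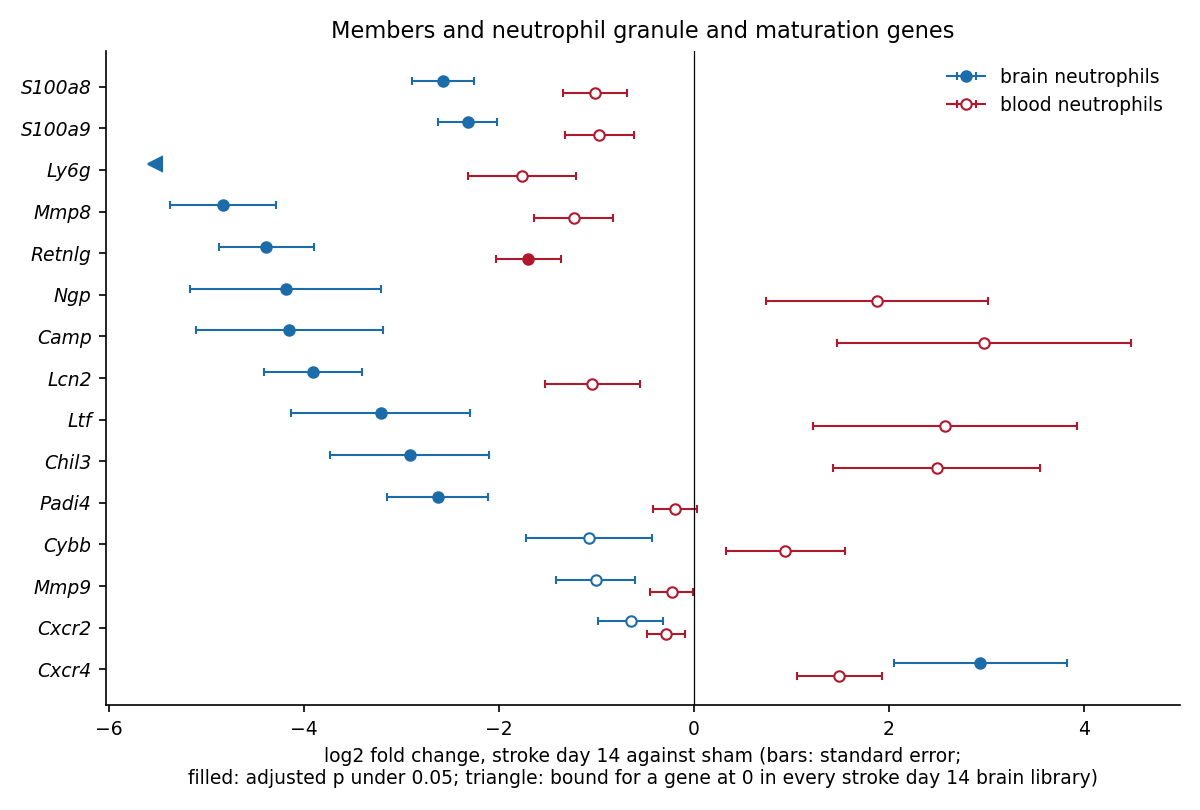
Log2 fold change at day 14 after stroke against sham for S100a8, S100a9 and the granule and maturation genes reported here, in brain (blue) and blood (red) neutrophils, with standard errors; filled circles passed at an adjusted p under 0.05. The blue triangle for Ly6g marks its bound, since it was at 0 in every brain library of day 14; 9 list genes lie to the left of 0 as passing in brain, and Retnlg alone in blood.

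Other S100 genes, the receptors and the regulators gave few calls. The shares of all genes that passed, to set beside them, were 26.1% at day 14 and 8.35% at day 2 in brain, and 5.99% at day 14 in blood. Of 12 further S100 genes 2 could be tested in brain neutrophils, and both fell at day 14: S100a6 by 1.89 (edgeR adjusted p = 0.000364) and S100a11 by 1.64 (edgeR adjusted p = 0.0183). In blood 3 were tested and 0 passed. Of 14 genes of the calprotectin receptors and Toll-like receptor 4 signalling, 4 were tested in brain and 0 passed at day 14; at day 2 Cd14, the co-receptor that hands ligands to the receptor complex, was higher (1.45, edgeR adjusted p = 0.0292). In blood at day 14, 2 of 8 were lower, Cd14 (-1.93, edgeR adjusted p = 0.0314) and Cd33 (-0.94, edgeR adjusted p = 0.0301). Of 10 regulators 8 were tested in brain and 0 passed, and in blood Hif1a, the oxygen-sensing factor, was the 1 of 9 that fell (-1.55, edgeR adjusted p = 0.00323).

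Over all summed types and libraries, the genes whose pattern was most like that of both members were ranked by the mean Pearson r of log2(CPM + 1). In young brain, over 102 sums of 11 types, these were Cxcr2 (0.876), Il1f9 (0.851), Retnlg (0.850), Hdc (0.831) and Mirt2 (0.819). In blood, over 72 sums of 9 types, they were Cxcr2 (0.876), Gm5483 (0.875), Slc40a1 (0.865), Ceacam10 (0.860) and Chil1 (0.859). S100a8 and S100a9 themselves had r = 0.872 in brain and 0.978 in blood. The sums of 1 library share their depth, and most of the spread lies between neutrophils and all other types.

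Outside neutrophils the 2 readings of the values parted. In blood Mo cells a median of 59.7% of cells per sham library were above 0 for S100a8, and in B cells 50.8%, T cells 55.1% and NK cells 47.3%. Yet no more than 0.469% of the cells of any of these types in any blood library had a value that rounds to 1 or more. Among B cells and NK cells, lymphocytes that are not known for calprotectin, none did. Median depths were 343 to 523 counts per B cell and 496 to 980 per monocyte in sham. The deposited S100a8 level was under 1 CPM in B, T and NK cells of every blood library but 1, in which T cells stood at 56.4 CPM.

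With values above 0 rounded up, these types carried S100a8 at levels whose ranges overlapped. In B cells the level was 410 to 1311 CPM in sham, 851 to 1328 at day 2 and 194 to 663 at day 14, with medians of 948, 1153 and 653 CPM. In monocytes, cells known to express S100a8 and S100a9, it was 367 to 919, 660 to 1002 and 157 to 579 CPM. Monocytes were thus no higher than B cells, T cells or NK cells in median over the 11 libraries (660 CPM against 922, 828 and 796), and all ranges overlapped. As a share of the neutrophil level of the same library, S100a8 in B cells had a median of 0.873% and S100a9 0.963%. The 10 other neutrophil genes compared had medians from 0.606% (Mmp9) to 1.83% (Camp) in B cells. In monocytes S100a8 stood at 0.536% and S100a9 at 0.668%. There the same 10 genes ran from 0.409% (Ltf) to 14.1% (Mmp8), with Csf3r at 4.92%, Lcn2 at 4.69% and Retnlg at 0.979%.

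The rounded-up level was also set against the share of neutrophils in the library, over 11 blood libraries and as an analysis added later, with 20 such relations in the family. In B cells Pearson's r was 0.74 (permutation p = 0.00589, adjusted 0.0206) and Spearman's rho 0.85 (permutation p = 0.00127), and r was 0.75 without the 2 farthest libraries. T cells gave r = 0.74 (adjusted p = 0.0225, permutation test, rho 0.86) and NK cells r = 0.74 (adjusted p = 0.0206, permutation test, rho 0.84). Monocytes gave r = 0.59 (permutation p = 0.0437, adjusted 0.109). These are the values of S100a8. For S100a9 r was 0.79 in B cells, 0.79 in T cells, 0.85 in NK cells and 0.76 in monocytes, and all 4 passed (adjusted permutation p = 0.0118 to 0.0199). After the mean of each group was taken out, r of S100a8 was 0.60 in B cells, 0.60 in T cells, 0.64 in NK cells and 0.40 in monocytes, and none passed (adjusted permutation p = 0.121 to 0.324). For S100a9 it was 0.70, 0.72, 0.79 and 0.65, and NK cells alone passed (adjusted permutation p = 0.0478). With deposited values, none of 19 relations passed (lowest adjusted permutation p = 0.854). With the share of counts in neutrophils in place of the share of cells, all 8 blood relations of rounded-up values passed, monocytes included (S100a8 r = 0.63, adjusted permutation p = 0.0249). In brain 0 of 12 passed with the share of cells and 9 of 12 with the share of counts (adjusted permutation tests).

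**Figure D5:**
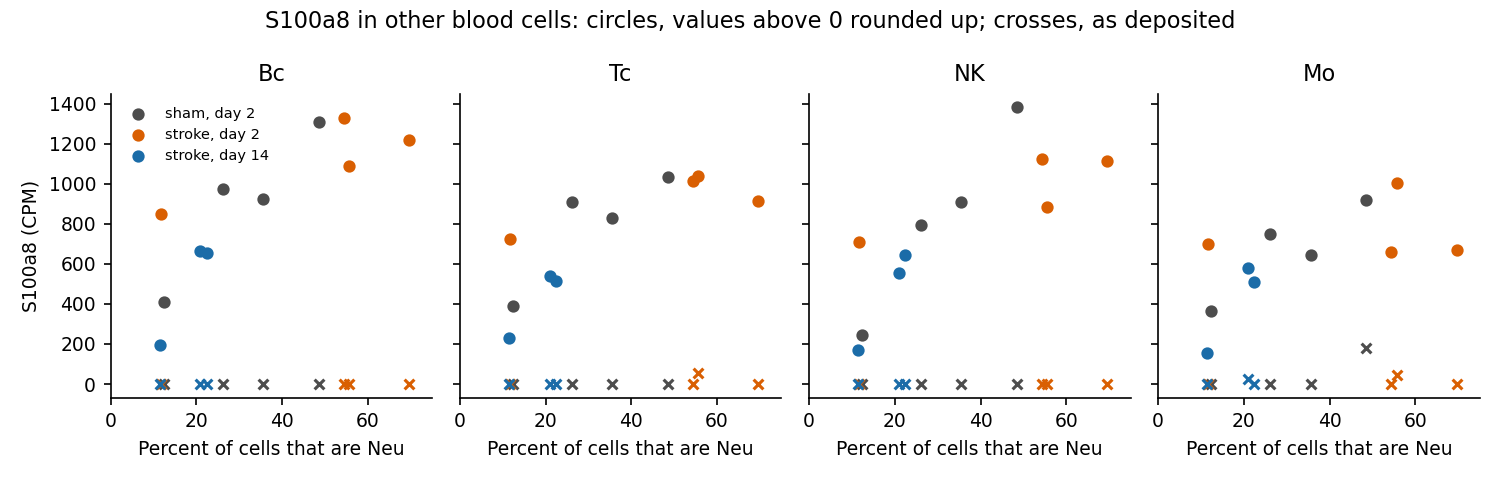
S100a8 level in CPM in B cells (Bc), T cells (Tc), NK cells and monocytes (Mo) against the percent of cells in the same blood library that are neutrophils, for values rounded up (circles) and as deposited (crosses). Circles rise with the neutrophil share in B, T and NK cells (r = 0.74 in each), while the crosses lie at or near 0 in B and NK cells and reach 56.4 CPM in T cells and 178 CPM in Mo.

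In microglia and endothelial cells of young brain the median rounded-up S100a8 level was lower after stroke than in sham. In microglia it was 144 CPM in sham, 44.7 at day 2 and 21.1 at day 14, and in endothelial cells 166, 30.0 and 23.8 CPM. The sham libraries of microglia (89.3 to 195 CPM) stood above all libraries after stroke (9.90 to 62.2 CPM). As a share of the neutrophil level in the same library, S100a8 stood at a median of 0.0671% in microglia and 0.0785% in endothelial cells, and Retnlg at 0.0910% and 0.0505%. The deposited S100a8 level had a median over the 12 libraries of 0.27 CPM in microglia and under 0.01 in endothelial cells. Deposited counts in sham summed to 85.9 in microglia, against 863 rounded up, and to 13.1 in endothelial cells, against 143. At day 2 they summed to 12.8 against 208 and to under 0.01 against 105. Most of the rounded-up level in these 2 groups was thus values close to 0 counted as 1. The fall is described for that reading only.

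MdC had the highest S100a8 level of the brain outside neutrophils, and it was lower at day 14 than in sham. The deposited S100a8 level was 2359, 1148 and 718 CPM in 3 sham libraries and under 0.01 CPM in sham replicate 4, which had 43 cells. At day 2 it was 58.9, 99.3, 87.6 and 211 CPM, and at day 14 it was 30.3 and 18.7 CPM in 2 libraries and under 0.01 CPM in the other 2. The sham group thus overlapped with both others through that replicate. Sham MdC were few, 43 to 99 cells per library, against 1468 to 2180 at day 2. The fall to day 14 passed at -5.88 ± 0.99 (edgeR adjusted p = 0.00257, 5.15% of genes passed and 0.941% as lower). The difference at day 2 did not (-2.85 ± 0.84, edgeR adjusted p = 0.0552, 6.71% passed, while 6 of 8 alternative settings passed), nor that from day 2 to day 14 (-3.03 ± 0.89, edgeR adjusted p = 0.122, 1.79% passed). Same-numbered MdC libraries of day 2 and day 14 deviated together, and with the replicate number as a block in the fit the last difference passed (-3.26 ± 0.68, edgeR adjusted p = 0.00201), with 260 higher and 209 lower genes in place of 67 and 78. With library size alone the calls at day 14 split into 200 higher and 199 lower genes, against 340 and 76, and S100a8 stood at -6.22. The median gene moved from 0.28 to -0.11. At day 2 the split was 180 and 175, against 457 and 85. S100a9 was too low to test in MdC. For S100a8, 2 day 14 libraries were under 0.01 CPM, so the filter on low counts could not keep it through day 14 alone. The limit given for Ly6g thus bears on its fall to day 14. The share of MdC above 0 for S100a8 was 18.2% ± 4.0 (SD, n = 4), 12.3% ± 4.1 and 3.88% ± 2.5, and for S100a9 6.81% ± 2.2, 4.46% ± 2.2 and 1.10% ± 0.47.

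The 3 groups of MdC held different subtypes. The authors' MdC3 made up 67.4% to 91.5% of young brain MdC in sham, 11.8% to 16.6% at day 2 and 8.09% to 20.1% at day 14. At day 2 MdC1 (29.4% to 36.6%) and MdC2 (26.1% to 30.7%) were the most frequent, and at day 14 MdC6 (32.6% to 35.5%). Pooled over the 12 libraries, the deposited S100a8 level was 389 CPM in MdC3, 119 in MdC2, 93.0 in MdC1, 38.3 in MdC6, 33.7 in MdC4 and 19.1 in MdC5. The groups differ in level and in subtypes, so this pooled order need not hold within each group. Within MdC3 alone the S100a8 level was 3301, 1618, 796 and under 0.01 CPM in sham (29 to 75 cells per library). It was 82.9, 66.3, 185 and 582 CPM at day 2, and at most 4.66 CPM at day 14. The share of MdC3 cells above 0 was 20.0% ± 5.1 (SD, n = 4) in sham, 12.6% ± 6.5 at day 2 and 0.795% ± 1.2 at day 14. Within MdC3 the day 2 difference from sham was -2.69 ± 0.83 and did not pass (edgeR adjusted p = 0.179; 0% of 1630 genes passed, with 218 at an unadjusted p under 0.05). Day 14 was lower than sham (edgeR adjusted p = 0.0237, 0.675% of genes passed), with no fold given because its summed counts were under 3. S100a8 was thus kept by the filter on low counts only through groups other than day 14. As for Ly6g, its direction was fixed, and this call is a description. These MdC3 fits were added later, and the subtype shares were not tested.

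In sham replicate 1 a few cells carried the level: 8 of 99 MdC had at least 10 counts of S100a8 and held 93.2% of it, and 5 of these 8 also had a count of another neutrophil gene (Retnlg, Csf3r, Cxcr2 or Mmp9). In sham replicate 2, 2 of 94 cells held 51.8%, and in replicate 3 none of 82 had 10 counts. Over all young brain libraries, 21 of 10441 MdC had at least 10 counts. These held 30.0% of the S100a8, and 7 of the 21 had another neutrophil gene. With rounded-up values the ratio of S100a8 to S100a9 was higher in MdC than in Gran of the same library in 12 of 12 young libraries, with a median of 4.26 and a range of 2.5 to 12. It was higher in 4 of 12 for microglia (median 1.22) and in 7 of 12 for endothelial cells (median 1.54). That ratio was picked out after its values were seen and is given without a test. The summed level of 10 neutrophil markers in MdC was 426 to 841 CPM in sham, 114 to 189 at day 2 and 74.6 to 164 at day 14, with 3 to 8 of the 10 at 0 in a sham library. That of 7 microglia markers in MdC was 0 to 606, 270 to 762 and 371 to 2214 CPM. The medians of 8 monocyte and macrophage markers were 34825, 29692 and 35153 CPM. Their part in the S100a8 level was not tested.

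Against blood monocytes the direction turned with the reading, and here too tissue cannot be told apart from cell isolation. At day 2 MdC stood 4.80 ± 1.25 above Mo with deposited values (edgeR adjusted p = 0.00897, 28.6% of genes passed) and 2.06 below it with values rounded up (-2.06, edgeR adjusted p = 0.00113). At day 14 the values were 1.04 ± 1.24 (edgeR adjusted p = 0.623, 17.8% passed) and -3.50 (edgeR adjusted p = 4.9e-05). With DESeq2 the day 2 value was 3.86 and did not pass (adjusted p = 0.107). With 1 library left out the day 14 value ran from 0.22 without brain replicate 1 of day 14 to 7.11 without blood replicate 1 of day 14, and none of these fits passed. With only cells of at least 500 counts it was 7.005 ± 2.56 (edgeR adjusted p = 0.0734).

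Smaller types gave calls that rested on few cells. In brain DC S100a8 was 71.1, 221 and 89.9 CPM in 3 sham libraries, under 0.01 in the other, and at most 1.58 CPM at day 14 (-6.86 ± 1.07, edgeR adjusted p = 0.0074, 1.53% passed), and without sham replicate 2 it was -5.86 (edgeR adjusted p = 0.0658). With values rounded up it was -3.37 (edgeR adjusted p = 0.016). With deposited values S100a8 passed the filter on low counts in brain DC only through groups other than day 14, and the limit given for Ly6g applies. In blood DC, where 2 sham libraries had enough cells, sham replicate 1 stood at 3343 CPM and replicate 2 under 0.01, against 81.4 CPM in 1 library of day 14 and under 0.01 in the other 2 (-6.39 ± 0.45, edgeR adjusted p = 2.65e-42, 1.48% passed). A single cell of 34 held 98.3% of that sham level. With DESeq2 the difference was -5.89 and did not pass (adjusted p = 0.998), with values rounded up it was -2.28, and without cells marked by Scrublet, a doublet caller, it was -9.97. In Eos.Bas, day 2 replicate 1 stood at 5944 CPM, of which 3 of 50 cells held 82.8%, and the difference between day 14 and day 2 was -4.68 ± 0.81 (edgeR adjusted p = 0.0341, 0.277% passed). At day 2 only 2 libraries had enough Eos.Bas cells. Without replicate 1 the difference was -3.24 (edgeR adjusted p = 0.56), with a single day 2 library that is assumed to vary like the other groups, and without day 14 replicate 2 it was -8.93 (edgeR adjusted p = 0.0267). The call was also lost without sham replicate 1 (edgeR adjusted p = 0.103), without day 14 replicate 1 (0.171) or 3 (0.0684), and with DESeq2 (adjusted p = 0.382).

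The male aged library of stroke day 2 stood apart from the 2 female ones outside neutrophils. Its S100a8 level was 3264 CPM in MdC against 289 and 189, 849 CPM in microglia against under 0.01 in both, and 1275 CPM in BAM against under 0.01 in the female library with enough cells. In MdC 17 of 271 cells held 88.1% of it, and 9 of these 17 had another neutrophil gene. In microglia 2 of 326 cells held 99.9%. Aged stroke against aged sham gave 2.54 ± 1.28 in MdC (edgeR adjusted p = 0.325, 2.56% passed). Without the male stroke library it was 0.21 (edgeR adjusted p = 0.959), and without a filter on low counts it passed (2.75, edgeR adjusted p = 0.00189). Over all 96 contrasts of all types and subtypes, S100a8 was too low to be tested in 33 and S100a9 in 50.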

How the data were processed

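Drop-seq tables of 29 libraries were used. The values are expected counts per gene and cell as deposited by the authors, many of them fractional. The step that made them fractional, the aligner and the cell filters are not given in the sources used here. The submitters' processing notes name mm10 and Seurat. Cell type codes were the authors'.

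Counts were summed per library and type (at least 20 cells), rounded and tested with edgeR 4.0.16 (quasi-likelihood, TMM, filterByExpr, Benjamini-Hochberg adjustment over all genes tested, threshold 0.05, SE from the F statistic). DESeq2 1.42.0 was an alternative. The test was checked on simulated data. Ratios and shares were tested by exact permutation (scipy 1.17.1). Scrublet (scanpy 1.11.5) marked so few cells that it had not worked, so doublets were not removed. The rule allowed any gene of the lists to be named, and likeness named the 5 genes with the highest mean r. The members, lists and added comparisons were chosen with earlier results of these data known. One gene of the granule and maturation list counts in its totals and is not reported here. Same-numbered brain libraries of day 2 and day 14 deviated together in every pair in Gran (r = 0.187 to 0.479) and MdC (0.271 to 0.751). This pairing was read from the data and not the labels, and in Mg 1 pair had r = 0.0739. The reported fits use the group alone and leave the pairing out. It enters only in the alternative with the replicate number as a block in all groups, sham included. Libraries are pools of animals, so p-values measure the spread between pools. Intervals of shares cover counting error only.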

Additional observations from a re-analysis of the deposited data

How the results depend on the processing

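Of 688 alternative values for 35 fold changes of S100a8 or S100a9, 605 kept direction and side of the threshold, 30 passed where the reported value had not, 42 no longer passed and 11 changed sign. The cause of these changes was not tested. The 688 include fits without cells marked by Scrublet, which marked at most 0.225% of the cells of a library. They also include fits that left out a library outside the groups compared. Many such fits differ little from the reported one, so 605 is not a count of independent checks. Fits that gave the gene no adjusted p were left out of the 688 and are not counted as lost calls. The fall of S100a8 in brain neutrophils from sham to day 14 passed under every alternative run. With DESeq2, the day 2 values of brain neutrophils passed (-1.02 and -0.89 for S100a8 and S100a9), as did those of blood at day 14 against sham (-1.04 and -0.997) and S100a8 against day 2 (-0.94). With values rounded up, S100a8 passed at day 2 in brain (-1.04), as it did without Gran5 cells (-0.96). Without a filter on low counts the calls were lost for day 14 against day 2 in brain (-1.72 and -1.59), for aged S100a8 (-1.28) and for brain against blood at day 14 (-1.90 and -1.72). That setting also turned the sign of aged against young sham (-0.032 and -0.10) and of brain against blood in sham (-0.15 and -0.16). Only cells with at least 500 counts lost brain against blood at day 14 (-1.26 and -1.22), and sex as a covariate lost aged S100a8 (-1.47). Aged S100a9 passed with DESeq2 (-1.51), library size alone (-1.13), only the groups compared (-1.59), values rounded up (-1.55) and cells of at least 500 counts (-1.48). MdC at day 2 passed without a filter (-2.50), with library size alone (-3.31), only the groups compared (-2.95), rounded up (-2.60) and at least 500 counts (-3.13), and at day 14 against day 2 without a filter (-3.19) and rounded up (-2.30). MdC against blood monocytes at day 2 was 3.86 with DESeq2, which did not pass, and -2.06 rounded up, and -3.50 rounded up at day 14. The correlation of the deposited S100a8 level with the neutrophil share changed sign in endothelial cells when that share was taken of counts (-0.060). In microglia it did so with values rounded up, alone (0.47), with group means removed (0.53) and with the share of counts (0.90), where sham libraries stood apart.

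Leaving out 1 library at a time gave ranges of -1.80 to -1.39 (S100a8) and -1.68 to -1.30 (S100a9) for day 14 against day 2 in brain, and of -0.25 to 0.12 and -0.33 to 0.13 for day 2 against sham in blood. For aged stroke against sham they were -1.64 to -1.41 and -1.63 to -1.34. The aged S100a8 call was lost without the male (-1.41) or female (-1.60) aged sham library, without female aged stroke replicate 1 (-1.45) or 2 (-1.43), and without young sham replicate 1 or 4 or young stroke replicate 3 of day 2. Without young sham replicate 2 the values were -1.57 and -1.52, and S100a9 then passed. For brain against blood at day 14 the ranges were -1.67 to -1.14 and -1.46 to -0.88. MdC at day 2 ran from -3.46 to -2.06. The ratio of S100a9 to S100a8 ran from -0.093 to 0.018 for day 2 in blood and from -0.010 to 0.207 for day 14 against day 2 in brain. The sign changes in blood at day 2 came without sham replicate 1 (0.12 and 0.13), stroke replicate 2 (0.07 and 0.09) and, for S100a9, stroke replicate 3 (0.01).

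Sham libraries were not taken as paired with those after stroke, and blood libraries not with each other, since same-numbered libraries correlated below 0.1 in at least 1 pair of each such comparison checked. With the replicate number as a block in all groups, MdC passed at day 2 (-2.61) and at day 14 against day 2 (-3.26), and no other call on the members changed. Counts of genes called moved by over 1.5 times in several comparisons. Without a filter, 83 became 45 in brain neutrophils at day 2, 42 became 25 at day 14 against day 2, 0 became 32 in blood at day 2 and 296 became 487 in blood at day 14. With cells of at least 500 counts the last was 125. In blood at day 14 against day 2, 232 became 408 without a filter and 99 with such cells. In brain against blood at day 2, 270 became 739 without a filter, 518 rounded up and 126 with such cells. In aged stroke against sham, 44 became 29 without a filter, 67 with library size alone and 77 with such cells. In aged against young stroke, 0 became 1 with DESeq2, 13 without a filter, 5 with such cells and 7 with sex as a covariate, and in the age difference of the response 0 became 1 without a filter. Leaving out 1 library gave 42 to 87 genes for brain at day 2, 15 to 55 for day 14 against day 2, 83 to 359 and 67 to 260 for day 14 in blood against sham and against day 2, and 5 to 66 for aged stroke.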
